A study of Homo sapiens with 6 samples.

Results

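HMGA2 and 7 further genes tied to the let-7 microRNAs, several of them oncofetal, were followed in OVCA433 cells with and without versican. OVCA433 is an established line from a serous carcinoma of the ovary. The members are HMGA2, HMGA1, LIN28B, IGF2BP1, IGF2BP2, IGF2BP3, ARID3B and DICER1, taken as every probe set whose annotation names 1 of these symbols alone. That rule gave 28 of the 54675 probe sets on the array, and 8 of the 19775 genes that had a probe set with 1 symbol. HMGA2 was chosen by its strong rise in signal between these same control and versican arrays, so its change is given as a description with no test. The other members were named with earlier results of these data known.

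Transcripts were read by Affymetrix U133 Plus 2.0 arrays, of which 3 carried RNA of control cells and 3 that of versican-treated cells. All cells grew in RPMI1640 medium with 10% fetal bovine serum. At 24 hours after seeding, control dishes received fresh medium and the other dishes fresh medium with exogenous versican, a matrix proteoglycan with chondroitin sulfate chains. Harvest is put at 48 hours after transfection, although no other label speaks of a transfection. The sources used here do not give the dose or form of the versican. One cell line was used, and nothing says that the arrays of a group came from separate cultures, so p-values measure the spread between these arrays, which may be technical.

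Values are MAS5 signals, a linear brightness for each probe set. Changes are on the scale of log2(signal + 16), which understates the change of dim probe sets. A gene was represented by its brightest probe set and tested when it lay in the upper 50% by mean, which put the lowest mean signal tested at 201. The test was limma's moderated linear model with Benjamini-Hochberg adjustment over all 9887 tested genes, and "rose" and "fell" are used of genes with an adjusted p under 0.05. Signals of different probe sets were not compared with each other as levels. Median signal was 62.8 to 75.8 per array, and arrays correlated at 0.993 to 0.995 within and 0.969 to 0.972 between groups. All 6 epithelial markers were tested, with signals of at least 10020. Of these KRT19 fell (log2 -0.21, adjusted p = 0.016, limma) and the others did not pass. The summed signal of 6 fibroblast markers was 260 to 423 in control and 201 to 237 in versican arrays. That of 4 endothelial markers was 226 to 378 in control and 222 to 315 in versican arrays. The part of these sums in the results was not tested, and none of these markers passed the limit. Of 5 leukocyte markers PTPRC, CD53, CD14 and CD3E lay below it, while LAPTM5 was tested and rose from 786 ± 5.7 to 977 ± 18 (SD, n = 3 each; log2 0.31, adjusted p = 0.0032, limma). The summed signal of the 5 was 924 to 930 in control and 1073 to 1156 in versican arrays, mostly through LAPTM5. PTPRC had a log2 fold change of 0.43, and CD53, CD14 and CD3E had -0.23, -0.16 and -0.17. The part of this sum in the results was not tested. Of 6 serous ovarian markers, PAX8, MUC16 and MSLN passed, and WT1, EMX2 and ESR1 did not. PAX8 rose (log2 0.90, adjusted p = 6.1e-06, limma), while MSLN fell (log2 -0.30, adjusted p = 0.019, limma). MUC16 was lower in every versican array but did not pass (log2 -0.17, adjusted p = 0.088, limma). The summed signal of these 6 was 3385 to 3637 in control and 4880 to 5283 in versican arrays, mostly through PAX8. Its part in the results was not tested. VCAN, the transcript of versican itself, rose 1.39-fold (log2 0.48, SE 0.07, adjusted p = 0.00061, limma).

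The let-7 microRNAs accumulate as tissues mature and bind the messenger RNAs of fetal growth genes, which are then degraded or poorly translated. HMGA2 is the textbook target, with many let-7 sites in its 3' end, and tumours often express it again. LIN28B blocks let-7 maturation, DICER1 cuts the let-7 precursor, and the IGF2BP proteins bind messenger RNAs and protect many of them. Mature microRNAs are not read by these arrays, so let-7 itself was not measured here.

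The family is shown because all of its members read the same short stretch of a target. RefSeq (GRCh38.p14) lists 12 human hairpins, which give 9 different mature strands from the 5' arm. The sequences run 5' to 3', and capitals mark the seed, bases 2 to 8, through which a microRNA finds its target:
let-7a-5p: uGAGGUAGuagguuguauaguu
let-7b-5p: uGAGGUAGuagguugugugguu
let-7c-5p: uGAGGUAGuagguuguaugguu
let-7d-5p: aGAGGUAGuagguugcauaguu
let-7e-5p: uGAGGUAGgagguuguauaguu
let-7f-5p: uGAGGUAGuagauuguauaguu
let-7g-5p: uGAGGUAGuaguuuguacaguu
let-7i-5p: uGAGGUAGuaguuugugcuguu
miR-98-5p: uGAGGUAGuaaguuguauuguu
All 9 share 1 seed, GAGGUAG. LIN28 proteins bind the precursor, and a known contact is a GGAG in or beside its loop. That motif lay after the mature 5' strand in 9 of the 12 hairpins and was not found there in those of let-7a-3, let-7b and miR-98. A hairpin with the motif (capitals) and one without it are the following:
let-7g (chr3:52268278-52268361, minus strand): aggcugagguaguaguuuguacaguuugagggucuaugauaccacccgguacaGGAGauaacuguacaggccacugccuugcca
let-7b (chr22:46113686-46113768, plus strand): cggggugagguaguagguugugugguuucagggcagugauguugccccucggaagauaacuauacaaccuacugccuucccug
These letters describe the reference and were not measured in the cells.

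HMGA2 encodes a small chromatin protein that bends AT-rich DNA and is normally confined to embryonic tissue and some tumours. Its brightest probe set, 208025_s_at, had signals of 1457, 1446 and 1381 in control and 5122, 5076 and 5141 in versican arrays. The groups lay far apart and each was tight, at 1428 ± 41 and 5113 ± 34 (SD, n = 3 each). The log2 fold change was 1.83 (SE 0.05), or 3.55-fold, and HMGA2 stood at rank 8 of 9887 tested genes by increase. A second probe set, 1567224_at, had signals of 139, 146 and 132 in control and 461, 568 and 485 in versican arrays, a log2 fold change of 1.75 (SE 0.12). It passed the limit only through its versican arrays, since its control mean of 139 lay below 201. The gap between the log2 fold changes of the 2 sets was 0.08 (SE 0.10).

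The other 7 HMGA2 probe sets were dim, with group means between 3.71 and 74.0, and were not tested. All 7 had a positive log2 fold change, from 0.09 to 1.07, and the groups overlapped in 6 of them. The exception was 1558683_a_at, at 39.3, 9.55 and 24.9 in control and 66.9, 69.6 and 59.1 in versican arrays. Averaging all 9 sets gave a log2 fold change of 0.77, or 1.71-fold, and such a mean lay below the test limit. The size of the HMGA2 change therefore rests on the choice of the 2 bright sets. HMGA2 was chosen by its rise and the 7 dim sets lay below the limit. Their shared sign is thus no support for the direction.

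**Figure D1:**
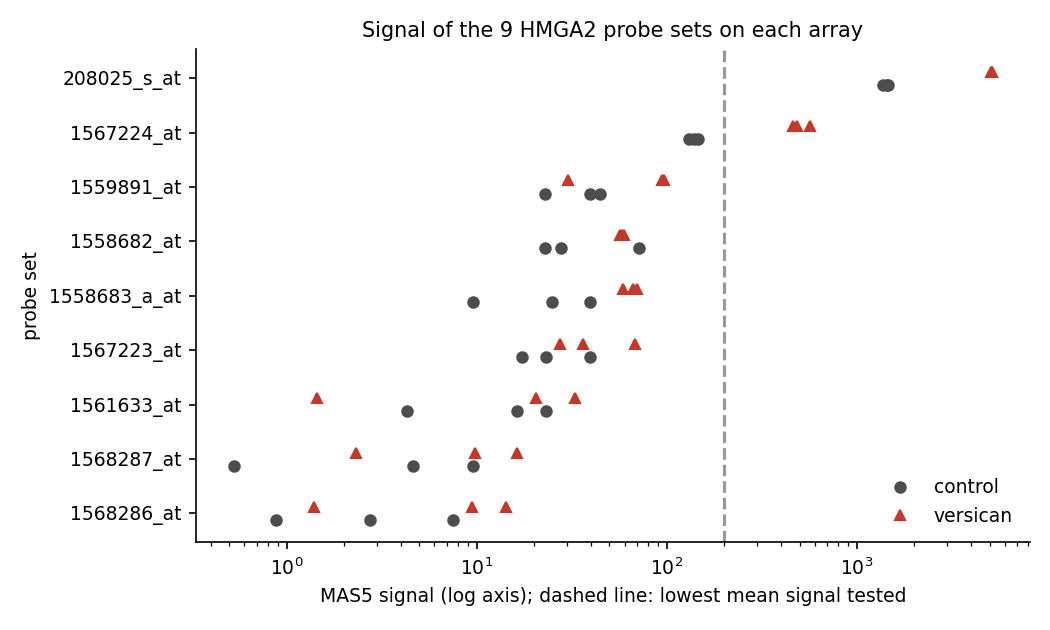
MAS5 signal (log axis) of each of the 9 HMGA2 probe sets, with 3 control arrays as circles and 3 versican arrays as triangles; the dashed line is the lowest mean signal tested, 201. The groups separate clearly in the 2 brightest sets, and in the 7 dim sets they overlap except in 1558683_a_at.

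HMGA1, the close relative of HMGA2 and likewise a protein of AT-rich DNA, rose. Probe set 206074_s_at read 4298, 4641 and 4503 in control and 6821, 7025 and 6774 in versican arrays. Every versican array was above every control array. The rise was 1.53-fold (log2 0.62, SE 0.05, adjusted p = 6.8e-06, limma), and it was called in all 19 settings in which HMGA1 was measured and tested. Its second probe set, 210457_x_at, had means of 370 ± 37 and 482 ± 33 (SD, n = 3 each). It rose by 0.37 on the log2 scale (SE 0.11, adjusted p = 0.020 when limma was fitted to single probe sets). That smaller call was lost without control replicate 1 (adjusted p = 0.059) and without versican replicate 2 or 3 (0.067 and 0.064). The brighter set rose by 0.25 more on the log2 scale (SE 0.07; two-sided exact permutation p = 0.10, below which 3 against 3 arrays cannot go). Both HMGA1 sets carry a suffix for probes that can match more than 1 transcript.

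**Figure D2:**
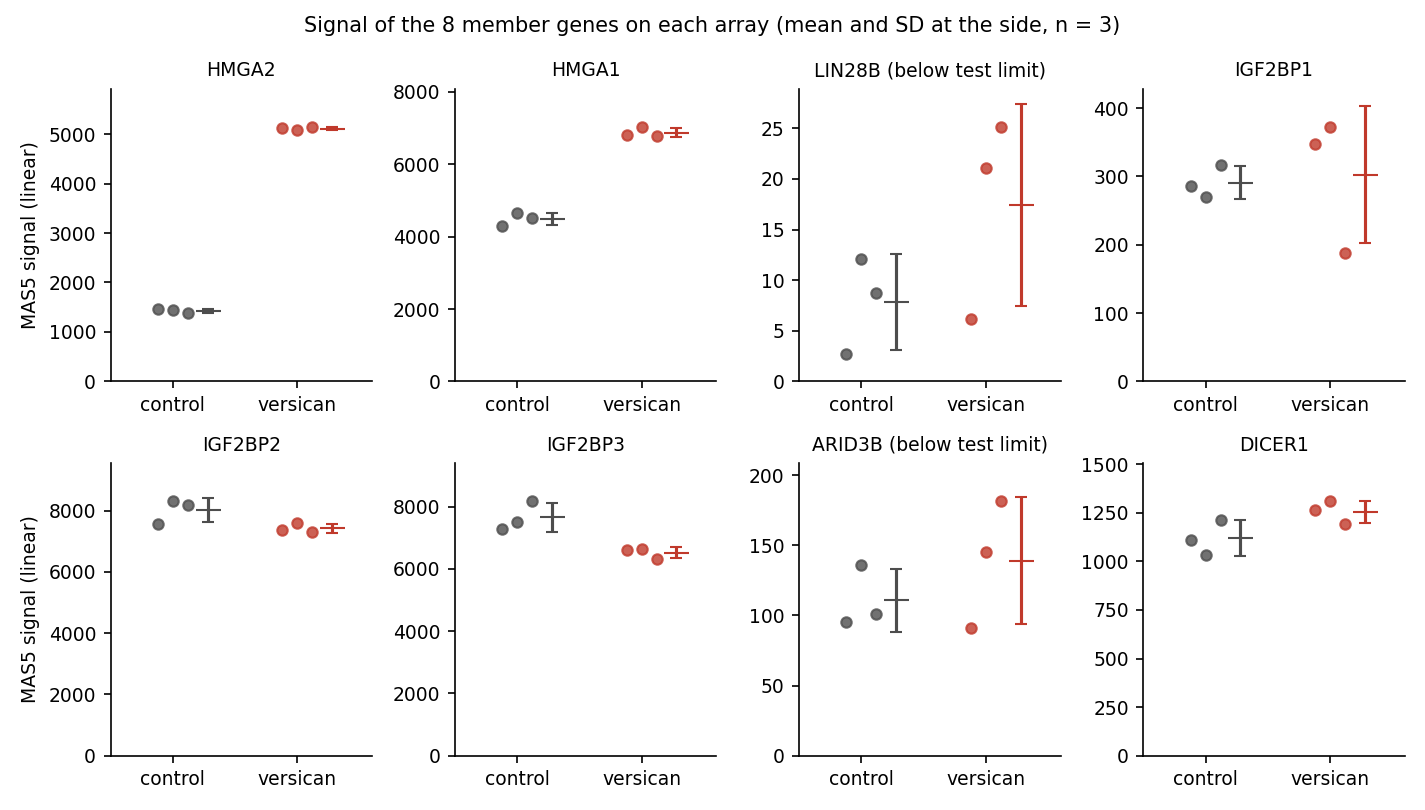
MAS5 signal (linear, from 0) of the brightest probe set of each of the 8 member genes on 3 control and 3 versican arrays, with the mean and SD at the side. HMGA2 and HMGA1 separate upward and IGF2BP3 downward, while the other 5 members overlap between groups.

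IGF2BP3, an RNA-binding protein of embryonic tissue and a marker of aggressive carcinoma, fell. Its brightest probe set, 203819_s_at, read 7280, 7521 and 8172 in control and 6600, 6644 and 6312 in versican arrays. The groups did not overlap, and the signal fell by 14.8% (log2 -0.23, SE 0.06, adjusted p = 0.0075, limma). The next set, 203820_s_at, read 3877, 3656 and 3987 against 2931, 2432 and 2912, and fell by 28.3% (log2 -0.48, SE 0.075, adjusted p = 0.00075, limma on single probe sets). The other tested set, 216493_s_at, stood at -0.12 on the log2 scale (SE 0.19) and did not pass (adjusted p = 0.65, limma), with groups that overlapped. The dim set 1569033_at was lower in every versican array, with means of 141 ± 13 and 103 ± 15 (SD, n = 3 each), and was not tested. The brightest set fell by less than the next, by 0.25 on the log2 scale (SE 0.11; two-sided exact permutation p = 0.10). The call of 203819_s_at was lost when arrays were centred on their medians (adjusted p = 0.17 in the gene fit). Without _x_at and _s_at sets the gene rests on 1569033_at and did not pass (log2 -0.41, adjusted p = 0.083, limma). That of 203820_s_at held in all 18 settings in which it was tested.

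IGF2BP2, which shares its RNA-binding domains with IGF2BP3, did not pass. Probe set 218847_at read 7577, 8303 and 8178 in control and 7383, 7597 and 7296 in versican arrays, and control replicate 1 lay below versican replicate 2. Its log2 fold change was -0.11 (SE 0.05, adjusted p = 0.11, limma). The gene was called lower after quantile normalization (adjusted p = 0.013), after cyclic loess (0.015), with array weights (0.046) and without control replicate 1 (0.031). Its second, dim set had means of 151 ± 5.7 and 149 ± 21 (SD, n = 3 each).

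IGF2BP1, the remaining gene of the family, did not pass either. Probe set 227377_at read 286, 269 and 317 in control and 347, 372 and 188 in versican arrays. Versican replicate 3 was the lowest of all 6 arrays and replicates 1 and 2 were the highest. The log2 fold change was 0.00 (SE 0.21, adjusted p = 0.999, limma). With so wide an error, a change as large as the error or larger could also have been missed. Without versican replicate 3 it was 0.29. The other 2 sets were dim, with log2 fold changes of -0.33 and -0.18. So of the 3 IGF2BP genes 1 fell, and none rose.

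LIN28B, the blocker of let-7 maturation, had 1 probe set, 229349_at, which read 2.71, 12.1 and 8.77 in control and 6.13, 21.1 and 25.1 in versican arrays. The groups overlapped and all 6 signals lay far below the test limit. With no filter on low values the log2 fold change was 0.46 (SE 0.30, adjusted p = 0.37, limma). LIN28A, its relative, was likewise dim, at means of 9.38 ± 5.0 and 19.5 ± 14.6 (SD, n = 3 each). The files hold no detection calls, so these values do not show that either transcript is absent.

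DICER1, the enzyme that cuts microRNA precursors, did not pass. Probe set 213229_at read 1110, 1034 and 1216 in control and 1263, 1309 and 1193 in versican arrays, and the groups overlapped. Its log2 fold change was 0.16 (SE 0.07, adjusted p = 0.10, limma), and it passed without control replicate 3 (log2 0.22, adjusted p = 0.044). The other 2 tested sets gave 0.16 and 0.03 (adjusted p = 0.16 and 0.84, limma on single probe sets). The set 206061_s_at read 491, 488 and 520 against 578, 548 and 551, so its groups did not overlap although it was not called. The 3 remaining sets were dim, with log2 fold changes from -0.01 to 0.14.

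ARID3B, a DNA-binding protein and reported let-7 target, had 1 probe set, which read 95.1, 136 and 101 in control and 91.1, 145 and 181 in versican arrays. It was not tested, and the groups overlapped. With no filter on low values its log2 fold change was 0.26 (SE 0.26, adjusted p = 0.57, limma).

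Besides HMGA2, 5 of the other 7 members were tested, of which 1 rose, 1 fell and 3 did not pass. Over all tested genes 41.6% were called, 21.0% higher and 20.6% lower, so 2 calls among 5 genes are near the background. By probe set, 10 of the 19 sets of these members were tested. Of the 10, 2 rose, 2 fell and 6 did not pass, against 37.5% of all 18891 tested sets called. Groups did not overlap for 5 of the 10, against 49.3% of all tested sets. Without control replicate 1, and without versican replicate 2 or 3, 1 set was called higher in place of 2.

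**Figure D3:**
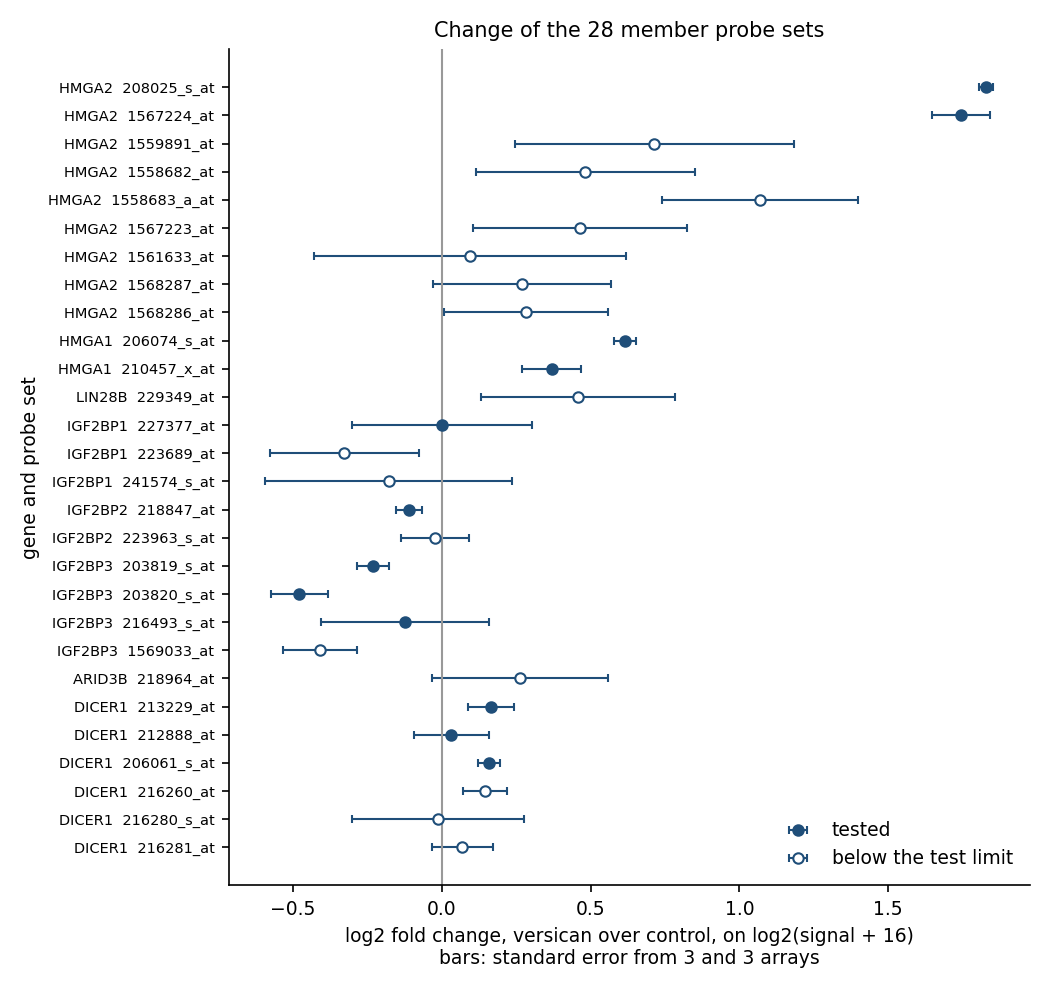
Log2 fold change, versican over control, of all 28 member probe sets on the log2(signal + 16) scale, with bars for the standard error from 3 and 3 arrays; filled points were tested and open points lay below the limit. The 2 bright HMGA2 sets stand at 1.83 and 1.75, the HMGA1 sets at 0.62 and 0.37, and the 4 IGF2BP3 sets between -0.48 and -0.12.

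The genes that make and use let-7 had a share of calls near the background. Of 21 listed genes 19 were tested, of which 6 rose, 3 fell and 10 did not pass, against 41.6% called over all tested genes. Their median log2 fold change was 0.05, against 0.01 over all tested genes. DDX5, an RNA helicase of the microprocessor, fell from 2973 ± 267 to 2096 ± 27 (SD, n = 3 each; log2 -0.50, SE 0.07, adjusted p = 0.00024, limma). TUT7, a terminal uridylyltransferase that tags let-7 precursors, fell by 0.37 on the log2 scale (adjusted p = 0.0021, limma). KHSRP, which binds the let-7 loop and promotes its processing, rose by 0.26 (adjusted p = 0.0037, limma), but did not pass when its probe sets were averaged (adjusted p = 0.15). DROSHA, the nuclease of the first cut, rose by 0.20 (adjusted p = 0.0072, limma), but did not pass after median centring (adjusted p = 0.10). Without control replicate 3 only 3 of these genes rose, and 2 rose with the mean of probe sets or without _x_at and _s_at sets.

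The transcripts that carry let-7 hairpins showed no call. Of 20 names listed, 6 had a probe set and 5 were tested, of which none passed. In the alternatives the only call was HUWE1 without control replicate 2 (log2 0.18, adjusted p = 0.013, limma). RefSeq coordinates place let-7a-3 and let-7b within MIRLET7BHG, whose signal was 347 ± 32 in control arrays and 285 ± 33 with versican (SD, n = 3 each; log2 -0.27, SE 0.12, adjusted p = 0.095, limma). MIR100HG, which spans let-7a-2, read 2131, 2120 and 2156 against 1990, 2003 and 2020, without overlap but by only -0.09 on the log2 scale (SE 0.05, adjusted p = 0.16, limma). WDR82, which spans let-7g, and HUWE1, which spans let-7f-2 and miR-98, had log2 fold changes of -0.17 and 0.10 (adjusted p = 0.33 and 0.31, limma). The set named MIRLET7D had 0.05 (adjusted p = 0.84). These probe sets read long host transcripts, which need not follow the mature microRNA.

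Genes reported elsewhere as let-7 targets included more that rose than fell. Of 30 listed, 23 were tested, of which 13 rose, 4 fell and 6 did not pass, against 21.0% higher and 20.6% lower over all tested genes. Their median log2 fold change was 0.30. The list was chosen with earlier results of these data known, so the count is a description and no test of let-7 targets. RRM2, a subunit of ribonucleotide reductase, rose 1.89-fold (adjusted p = 4.1e-07, limma). FAS, a death receptor, rose from 1402 ± 69 to 2532 ± 27 (SD, n = 3 each), 1.80-fold. IL6, an inflammatory cytokine, read 2646, 2941 and 3024 in control and 5293, 5178 and 5072 in versican arrays, also 1.80-fold. PRDM1, a transcriptional repressor, moved the other way, from 1068 ± 37 to 641 ± 29 (SD, n = 3 each; log2 -0.72, SE 0.07, adjusted p = 2.5e-05, limma). The highest change was that of MYCN (log2 1.24, SE 0.13), named after its value was seen. Its means were 148 and 374, so it passed the limit of 201 only through its versican arrays, and its call is no support for the count. AURKB and CDC25A, which act in cell division, also rose (log2 1.01 and 0.53) and were chosen likewise. The CDC25A call was lost without control replicate 3 (log2 0.36, adjusted p = 0.062, limma) and without versican replicate 1 or 2 (0.083 and 0.053). The count that fell was 2 without control replicate 3 and without versican replicate 1 or 2, and 1 without versican replicate 3.

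**Figure D4:**
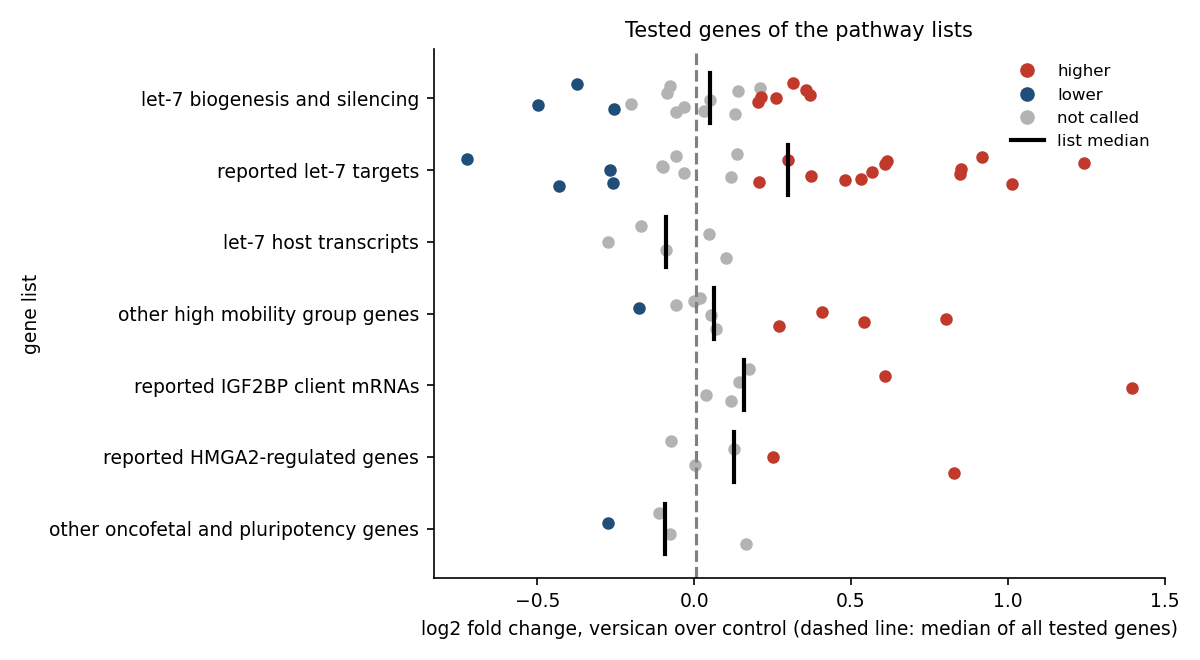
Log2 fold change, versican over control, of each tested gene of the 7 lists, with genes called higher, called lower and not called in different colours, a black bar at each list's median and a dashed line at the median of all tested genes, 0.01. The reported let-7 targets have their median at 0.30 and the let-7 host transcripts at -0.09, and no list lies wholly on one side of 0 except the reported IGF2BP client mRNAs.

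The wider high mobility group of chromatin proteins also had a share of calls near the background of 41.6%. Of 10 tested, 4 rose, 1 fell and 5 did not pass, with a median log2 fold change of 0.06. HMGB3 read 2694, 2511 and 2637 in control and 4490, 4397 and 4817 in versican arrays, 1.74-fold higher (adjusted p = 2.5e-06, limma). HMGB2 rose by 0.54 on the log2 scale (adjusted p = 0.00022, limma), though only by 0.30 with the mean of its probe sets, where it did not pass (adjusted p = 0.061). HMGN2 rose by 0.41 and HMGB1 by 0.27 (adjusted p = 0.00062 and 0.013, limma). The HMGB1 value depended on the probe set, with 0.51 for their mean and 0.69 without _x_at and _s_at sets, and its call was lost after median centring (adjusted p = 0.12), without control replicate 3 (0.059) and without versican replicate 3 (0.062). The gene that fell was HMGN3 (log2 -0.18, adjusted p = 0.039, limma), named after its value was seen, and it did not pass in 9 alternatives.

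Messenger RNAs reported to be bound by IGF2BP proteins were few among the tested genes. Of 6 tested, 2 rose and 4 did not pass, near the background of 41.6% called, and the median log2 fold change was 0.16. CD44, the hyaluronan receptor, rose by 1.39 (adjusted p = 1.1e-07, limma), or 0.67 with the mean of its 13 probe sets. IGF2BP3 fell and the other 2 IGF2BP genes did not pass. Binding by IGF2BP proteins was not measured, and a link between these values was not tested. MYC read 2553, 2893 and 2791 in control and 3898, 5010 and 3764 in versican arrays, 1.52-fold higher (log2 0.61, SE 0.10, adjusted p = 0.00081, limma). CTNNB1 and SRF had log2 fold changes of 0.14 and 0.17 (adjusted p = 0.052 and 0.14, limma). CTNNB1 passed among the upper 25% of genes (adjusted p = 0.042) and with the mean of probe sets (0.032).

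Genes reported to respond to HMGA2 included both called and uncalled members. Of 5 tested, 2 rose and 3 did not pass, near the same background, with a median log2 fold change of 0.13. CCNA2, cyclin A2, read 1608, 1336 and 1552 in control and 2771, 2914 and 2338 in versican arrays, 1.77-fold higher (adjusted p = 6.8e-05, limma). ERCC1, a DNA repair nuclease subunit, rose by 0.25 on the log2 scale (adjusted p = 0.0059, limma), but by 0.09 with the mean of its probe sets, where it did not pass (adjusted p = 0.18). The drivers of epithelial-mesenchymal transition SNAI2 and TWIST1 had log2 fold changes of 0.13 and -0.07, and CDH1, E-cadherin, had 0.00 (adjusted p = 0.26, 0.60 and 0.98, limma). SNAI2 passed without versican replicate 2 (log2 0.23, adjusted p = 0.010). SNAI1 was dim, at 158 ± 33 in control arrays and 108 ± 7.4 with versican (SD, n = 3 each), without overlap.

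Among other oncofetal and pluripotency genes only 4 of 12 measured were tested, and none rose. PLAGL1, an imprinted zinc finger gene, fell from 2005 ± 18 to 1653 ± 6.5 (SD, n = 3 each; log2 -0.28, adjusted p = 0.0014, limma), but did not pass after median centring (adjusted p = 0.055) or with the mean of its sets (log2 -0.15, adjusted p = 0.27). TPBG, PEG10 and PLAG1 did not pass (log2 -0.11, 0.17 and -0.08). TPBG was called lower after cyclic loess (adjusted p = 0.027), and PEG10 higher without control replicate 1 (0.042).

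The 5 genes whose pattern over the 6 arrays was most like that of HMGA2 were XDH, MIR146A, TMEM200A, PRSS2 and ANKRD22. Likeness was the root mean square difference of centred log2 values, which ran from 0.07 for XDH to 0.14 for ANKRD22. XDH, xanthine dehydrogenase, read 419, 443 and 435 in control and 1408, 1475 and 1491 in versican arrays. Because the groups differ so much more than the arrays within them, this measure mainly finds genes with a similar change, here 1.58 to 1.97 on the log2 scale. MIR146A, PRSS2 and ANKRD22 had control means of 103, 130 and 118, below the limit for testing. They passed it only through their versican arrays, so which genes could be listed depended in part on that limit. XDH and TMEM200A lay above it in control arrays too, at means of 432 and 434.

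Promoter windows were in the reference table for 5 members, HMGA1, LIN28B, IGF2BP2, IGF2BP3 and DICER1, with 12 windows in all. In the 250 bases before the start, both strands were searched for CACGTG, the E-box bound by MYC and its partners, for the AP-1 site TGACTCA and for the GC box GGGCGG, motifs that do not overlap each other. CACGTG was in 2 of the 12 windows, 1 of IGF2BP3 and 1 of LIN28B, and in 6.3% of all 35116 windows. TGACTCA was in 0 of the 12 and in 4.2% of all, and GGGCGG in 5 of the 12 and in 42.6% of all. The IGF2BP3 window is shown because it is that of the member that fell and holds CACGTG at 2 places (capitals; chr7:23470492-23470741, minus strand, GRCh38.p14):
IGF2BP3 promoter: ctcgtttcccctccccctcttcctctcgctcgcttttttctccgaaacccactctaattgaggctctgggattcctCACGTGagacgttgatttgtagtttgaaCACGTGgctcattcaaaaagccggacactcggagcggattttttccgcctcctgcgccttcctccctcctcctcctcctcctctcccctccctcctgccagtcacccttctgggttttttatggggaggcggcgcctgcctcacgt
A match is a stretch of letters, and binding was not measured.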

How the data were processed

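The authors deposited 1 table of intensity values, MAS5 probe set signals on a linear scale, per the submitters' processing notes. Its version and scaling target are not given in the sources used here, and the table holds no detection calls. The trimmed mean was 500.1 on each array. Cells were in 2 groups of 3 arrays, taken from the sample titles. Platform annotation named 41091 probe sets by 1 gene, 1801 by several and 11721 by none, besides 62 controls. Older symbols were updated through the gene identifier. No genome build applies to the signals.

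The values log2(signal + 16) entered limma 3.58.1 under R 4.3.3 (lmFit, eBayes with an intensity trend, group as the only term), for the brightest probe set of each gene in the upper 50% and, separately, for 18891 single probe sets above the same limit. The script was tested on simulated data. Members and lists were chosen with earlier results of these data known. Named genes are the members, VCAN, the 4 smallest p-values of each list (all members of lists with up to 5 tested genes) and the 5 genes most like HMGA2. Other names were chosen after their values were seen. Alternatives covered pseudocount, filter, normalization, trend, weights, probe set choice, replicate block and leaving out each array.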

Additional observations from a re-analysis of the deposited data

How the results depend on the processing

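HMGA2 had log2 fold changes of 1.75 to 1.85 in the 19 settings in which it passed the limit. The mean of its 9 probe sets gave 0.77 and lay below the limit. Because HMGA2 was chosen by its rise, these values are a description and no test. HMGA1 was called in its 19 settings. Among the upper 25% of genes, 1290 genes were called higher and 1131 lower, 1 member probe set was called higher, and let-7 targets counted 8 higher and 1 lower. Without _x_at and _s_at sets the members other than HMGA2 gave 0 higher and 0 lower, since HMGA1 then has no probe set and IGF2BP3 rests on its dim one. The same setting gave 2 biogenesis genes, 2 high mobility group genes, 1 IGF2BP client and 1 oncofetal gene higher, and 0 oncofetal genes lower. Members called lower were 2 after quantile normalization, cyclic loess or array weights, and 0 after median centring, which also gave 1 member probe set, 2 let-7 targets, 0 high mobility group genes and 0 oncofetal genes lower. Cyclic loess gave 2 oncofetal genes lower. With the mean of probe sets 2 biogenesis genes and 4 clients were higher, and 2 let-7 targets, 2 high mobility group genes, 1 HMGA2-regulated gene and 0 oncofetal genes were lower. Reversed there were PRKRA (log2 -0.056), TARBP2 (-0.026) and IGF1R (0.11). With no filter 1 oncofetal gene was higher and 0 high mobility group genes lower, and 0 of the latter were lower with no intensity trend. A pseudocount of 64 moved the gap between the 2 brightest HMGA2 sets to 0.31. The dimmer of them, 1567224_at, then had a log2 fold change of 1.48, and 208025_s_at had 1.80. A larger pseudocount by its arithmetic shrinks the change of a dimmer set more. The cause of the other shifts was not tested.

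The replicate block, which takes same-numbered arrays as pairs, left 0 high mobility group genes lower (HMGN3, adjusted p = 0.062, limma) and changed no other call of a member or list gene. The deviations of same-numbered arrays correlated at 0.119, -0.019 and -0.090, and the arrays share only a number. Leaving out each array in turn gave 1 to 2 other members called higher and 1 to 2 lower, 1 to 3 member probe sets higher, 3 to 7 biogenesis genes, 0 to 1 host transcripts and 0 to 1 oncofetal genes higher, and 1 to 3 let-7 targets and 0 to 1 high mobility group genes lower. With 3 arrays a group and no detection calls, LIN28B, ARID3B and the 7 dim HMGA2 sets can be given as values only with low precision.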

Other observations

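SOX2, a pluripotency factor, lay under the test limit and was named after its values were seen. It read 106, 72.7 and 71.4 in control and 202, 202 and 176 in versican arrays (log2 1.09), without overlap. AFP, the fetal serum protein, was also higher in every versican array, with means of 50.9 and 83.9. It separated only narrowly, at 57.9 on control replicate 2 against 58.5 on versican replicate 3. DLK1 was higher in every versican array, with means of 9.21 and 24.6 (log2 0.71), and SALL4 lower, with means of 8.71 and 6.58. All of these lay below the limit, and each gene is given by its brightest set alone. Groups did not overlap in 49.3% of all tested probe sets, and the share among sets below the limit was not computed. Groups overlapped for NANOG, at means of 31.5 and 24.1, GPC3, at 45.4 and 50.8, and TRIM71, at 36.1 and 31.2.

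Antisense neighbours of 3 members, chosen after the annotation was read, were all under the limit. The DICER1-AS1 set 229227_at was lower in every versican array, at 131 ± 13 in control arrays and 76.6 ± 9.3 with versican (SD, n = 3 each; log2 -0.67), while DICER1 did not pass. A second DICER1-AS1 set read means of 6.84 and 8.14. The 4 sets of IGF2BP2-AS1 and the set of LIN28B-AS1 had groups that overlapped.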
